A study of Mus musculus with 24 samples.

Results

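The genes described here are the cholesterol synthesis pathway and other targets and regulators of SREBP2, the transcription factor of sterol supply. They are 26 named genes, taken as the rows of the per-library gene tables that carry these names, out of 43629 gene identifiers in all. All 26 had a mean of at least 1 TPM (a relative level of transcripts, corrected for their length) and stood among the 12261 genes tested. They are 7 genes from acetyl-CoA to the isoprenoid diphosphates (Acat2, Hmgcs1, Mvk, Pmvk, Mvd, Idi1 and Fdps) and 3 from there to lanosterol (Fdft1, Sqle and Lss). A further 8 lead from lanosterol to cholesterol (Cyp51, Tm7sf2, Msmo1, Nsdhl, Hsd17b7, Ebp, Sc5d and Dhcr7). The SREBP regulators are 4 genes (Srebf2, Scap, Insig1 and Insig2), and 4 others handle acetate or finished cholesterol (Acss2, Stard4, Npc1 and Soat2). Other genes of the pathway were not analysed here.

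RNA was measured in whole liver of wild type C57BL/6 mice, young at about 4 months and old at about 19 months. Livers were taken every 4 hours over 2 days and labelled by zeitgeber time (ZT), in which lights conventionally come on at ZT0 and go off at ZT12. There were 6 times (ZT2, ZT6, ZT10, ZT14, ZT18 and ZT22), with 2 libraries for each age and time, 12 for each age and 24 in all. No group carried a transgene, a diet or a drug in the labels, and neither sex nor feeding schedule is used here. Nothing in the labels says that the libraries of a group came from separate animals, so the p-values measure only the spread between these libraries, which may be technical.

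Cholesterol is built in the cytosol and endoplasmic reticulum from acetyl-CoA through mevalonate, isoprenoid diphosphates, squalene and lanosterol. The precursor of SREBP2 sits in the endoplasmic reticulum bound to its escort Scap, and the Insig proteins hold that complex there while sterols are plentiful. When membrane sterol falls, Scap carries the precursor to the Golgi, where proteases free the part that enters the nucleus and raises transcription of the pathway. The liver is a main site of this synthesis, and rodents eat mostly in the dark phase.

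Depth in reads of 50 bases was 8.70 to 13.7 M reads a library. It was taken from the ratio of coverage to FPKM (fragments per kilobase of transcript, scaled to library size). Hepatocyte markers (Alb, Ttr, Apoa1 and 7 others) summed to 82435 to 114080 scaled TPM in the young libraries and 86640 to 116470 in the old. In whole liver, fewer cells of a type and less RNA per cell cannot be told apart. A pair of libraries stood apart. Young ZT18 replicate 2 had 3612 scaled TPM summed over 8 pancreatic acinar markers, against at most 50.8 in the other young libraries and 18.2 to 63.1 in the old. Old ZT14 replicate 1 had 3.42% of its TPM on mitochondrial genes, against 11.51% to 17.1% in young libraries and 10.7% to 15.4% in the old libraries of other times. The other old library at ZT14 was the next lowest of all, at 8.74%. Young ZT18 replicate 2 was the highest young library for 9 of the 26 genes, beside 7.02% of all genes tested, and old ZT14 replicate 1 the lowest old library for 10, beside 15.0%. These counts include the daily rhythm, since ZT18 was the highest time for 11 of the 26 genes and ZT14 the lowest for 18. Summed markers of Kupffer cells and macrophages were 252 to 386 in young and 282 to 664 in old, and those of lymphocytes and plasma cells 10.3 to 52.3 and 94.8 to 464. The part of these cells and libraries in the results was not tested beyond the values given without both libraries. Levels below are scaled TPM, which is TPM divided by a factor for each library, and pairs of values are replicate 1 and then replicate 2.

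Most of the cholesterol genes had a daily rhythm with a fitted peak in the late night or early morning. None of the 26 passed a test for a difference between ages. Of the 26 genes, 18 had a 24 h rhythm past the threshold on the mean of both ages, against 23.9% of all genes tested. These were 6 of 7 genes of the isoprenoid stage, 2 of 3 of the squalene stage, 4 of 8 of the late sterol stage, 3 of 4 SREBP regulators and 3 of the 4 remaining genes. The fitted peak of 16 of the 18 fell between ZT20 and ZT4, the late night and early morning, a window that held 30.4% of the 2935 genes called over the whole table. A fitted peak is that of a cosine and need not be the time of the highest level. The mean of both ages was highest at ZT18 for 11 of the 26 genes, at ZT2 for 9 and at ZT22 for 2. Insig1, for example, averaged 348 at ZT18, 179 at ZT22 and 279 at ZT2. The other 2, Npc1 and Soat2, peaked between ZT6 and ZT10, as did 19.7% of all called genes. Both windows lie close around the fitted peaks of these genes, so the counts within them are a description and no test. Without the pair of libraries that stood apart, 17 of the 26 passed. A call here means an adjusted p under 0.05 in limma's F test for a cosine and sine of 24 h, adjusted over all genes tested.

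Promoters are shown for 3 of the 4 enzymes that had the widest daily swings among those with an entry, to show the letters that SREBP2 and its partners are known to bind. They are from RefSeq on GRCm38.p6, which had an entry for 20 of the 26 genes, and run from 250 bases before the transcript start to 50 after it. Capitals mark matches on either strand to the sterol response element TCACNCCAC and to CCAAT, the letters bound by NF-Y. The Hmgcs1 window lies at chr13:119690101-119690400 on the plus strand, that of Mvd at chr8:122443373-122443672 on the minus strand and that of Acss2 at chr2:155517793-155518092 on the plus strand. The window of Pmvk, the other of the 4, lies inside the gene as the files place it and is not printed.
Hmgcs1: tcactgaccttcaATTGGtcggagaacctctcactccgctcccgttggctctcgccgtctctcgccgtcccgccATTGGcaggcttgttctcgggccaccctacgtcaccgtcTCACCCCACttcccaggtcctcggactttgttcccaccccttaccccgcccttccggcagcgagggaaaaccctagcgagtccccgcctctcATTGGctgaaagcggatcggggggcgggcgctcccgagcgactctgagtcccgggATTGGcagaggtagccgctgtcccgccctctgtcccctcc
Mvd: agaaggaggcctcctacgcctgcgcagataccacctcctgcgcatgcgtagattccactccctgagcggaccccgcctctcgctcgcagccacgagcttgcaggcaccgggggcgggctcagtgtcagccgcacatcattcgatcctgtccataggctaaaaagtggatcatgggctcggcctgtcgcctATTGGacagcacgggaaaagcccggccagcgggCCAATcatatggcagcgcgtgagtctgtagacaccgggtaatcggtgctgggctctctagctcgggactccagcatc
Acss2: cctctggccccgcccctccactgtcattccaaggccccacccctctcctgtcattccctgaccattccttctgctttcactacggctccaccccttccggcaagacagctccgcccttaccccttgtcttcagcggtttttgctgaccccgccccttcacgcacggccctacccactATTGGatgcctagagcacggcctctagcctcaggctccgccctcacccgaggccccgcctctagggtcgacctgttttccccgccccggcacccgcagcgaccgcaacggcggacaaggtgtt

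In the Hmgcs1 window a single match to the sterol response element, TCACCCCAC, began 137 bases before the start, among 4 CCAAT matches. Mvd had 2 CCAAT matches, at 60 and 27 bases before the start, and Acss2 had 1. Of the 20 windows, 1 held TCACNCCAC (5%), against 1.24% of 32544 promoter windows. CCAAT was in 16 of the 20 (80%), against 37.4% of all windows. The Sp1 letters GGGCGG were in 18 (90%), against 35.9%, and the E-box CACGTG was in 4 (20%), against 7.17%. Both strands were searched for each motif, and matches of different motifs overlapped in 0 cases. The 20 windows include those of Pmvk and Tm7sf2, whose transcript starts lie 453 and 523 bases from the gene starts given with the data. The 32544 windows were not limited to 1 for each gene or to genes tested. A match describes these letters in this window only. Sites that differ from these letters were not searched, so a window without a match may still hold a variant site.

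**Figure D1:**
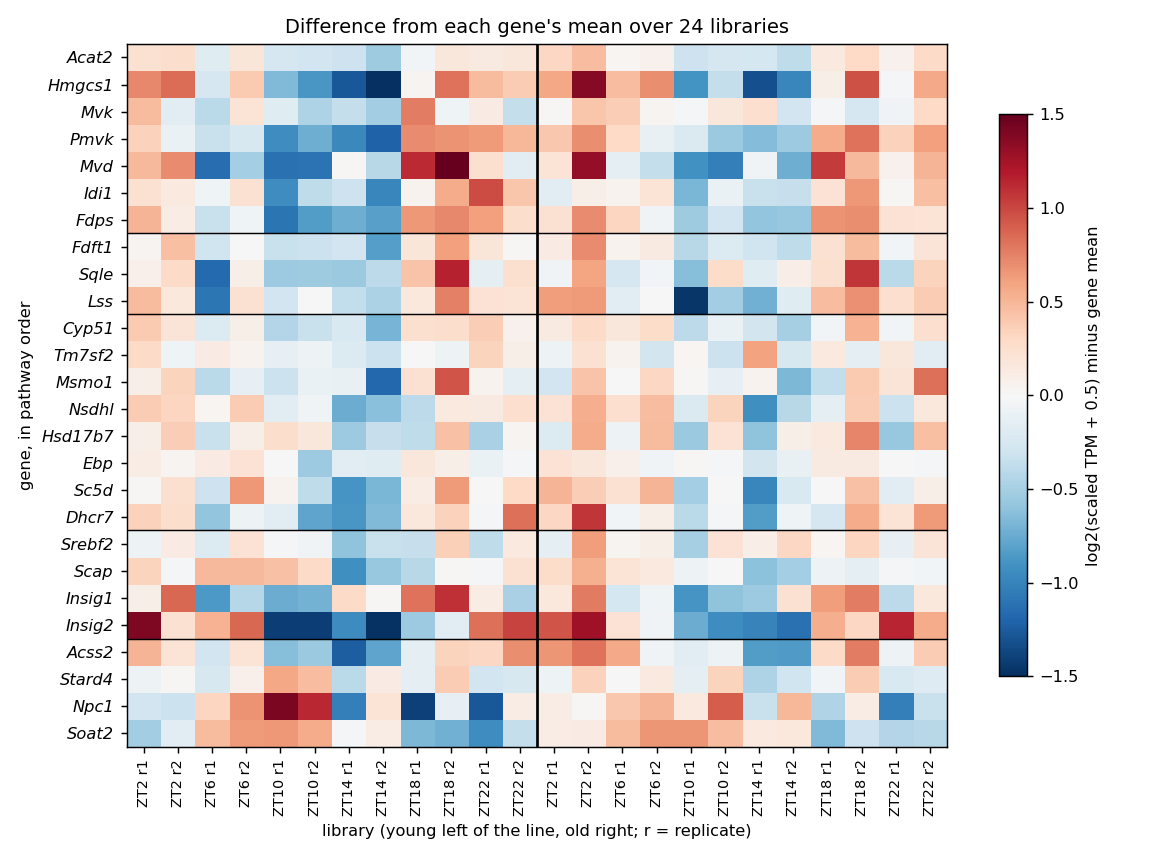
Each row is 1 of the 26 genes in pathway order and each column 1 of the 24 libraries (r is the replicate, young left of the black line, old right), and the colour is log2(scaled TPM + 0.5) minus the gene's mean over the libraries, clipped at 1.5. Most rows are blue at ZT10 and ZT14 and red at ZT18, ZT22 and ZT2 in both ages, and Npc1 and Soat2 at the foot are red at ZT6 and ZT10.

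The early pathway, from acetyl-CoA to farnesyl diphosphate, had the largest median swing (peak-to-trough difference) of the 3 enzyme stages, 1.29 on the log2 scale. The median of the squalene stage was 0.83 and that of the late sterol stage 0.63, beside 0.83 for all 26 genes and 0.36 for all genes tested. Gene positions are on GRCm38. Hmgcs1 (chr13:119690462-119708086, plus strand) makes HMG-CoA from acetyl-CoA and acetoacetyl-CoA. In young liver, Hmgcs1 read 193 and 210.2 at ZT2, 98.3 and 154 at ZT6, 73.5 and 63.6 at ZT10, 48.3 and 34.9 at ZT14, 121 and 206 at ZT18 and 162 and 152 at ZT22. In old liver, Hmgcs1 read 175 and 303 at ZT2, 162 and 189.5 at ZT6, 62.6 and 91.2 at ZT10, 46.8 and 59.1 at ZT14, 124 and 228 at ZT18 and 115 and 174 at ZT22. The means of both ages were lowest at ZT14 and highest at ZT2, and the ZT14 libraries lay below those of every other time in each age. Its peak-to-trough difference was 1.90 (SE 0.28) on the log2 scale, or 3.72-fold, with an adjusted p of 1.37e-04 and a fitted peak at ZT0.6. It passed in young alone (adjusted p = 0.00598) and in old alone (adjusted p = 0.015).

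Mevalonate is phosphorylated by Mvk and then by Pmvk, and Mvd decarboxylates the product to isopentenyl diphosphate. Pmvk (chr3:89459118-89469013, plus strand) had its lowest levels in the early night. In young liver, Pmvk read 91.6 and 67.4 at ZT2, 57.3 and 60.7 at ZT6, 37.4 and 43.1 at ZT10, 36.7 and 30.9 at ZT14, 118 and 116 at ZT18 and 113 and 102 at ZT22. In old liver, Pmvk read 95.6 and 117 at ZT2, 89.1 and 66.6 at ZT6, 62.0 and 48.7 at ZT10, 45.8 and 49.1 at ZT14, 106 and 127 at ZT18 and 91.5 and 110.4 at ZT22. Libraries at ZT18 ranged from 106 to 127 and those at ZT14 from 30.9 to 49.1, so these times did not overlap. The swing was 1.43 (SE 0.19) on the log2 scale, 2.69-fold, with a peak at ZT22.6 and an adjusted p of 4.48e-05. Mvd (chr8:122433596-122443422, minus strand) was the least abundant of the rhythmic enzymes at this stage. In young liver, Mvd read 18.8 and 21.9 at ZT2, 5.70 and 9.11 at ZT6, 5.80 and 5.86 at ZT10, 13.4 and 9.82 at ZT14, 29.4 and 38.2 at ZT18 and 15.7 and 11.8 at ZT22. In old liver, Mvd read 15.3 and 33.7 at ZT2, 11.9 and 10.2 at ZT6, 6.80 and 6.27 at ZT10, 12.8 and 7.74 at ZT14, 28.0 and 18.7 at ZT18 and 13.9 and 19.1 at ZT22. Young libraries ranged from 5.70 to 9.11 at ZT6 and ZT10 and were highest at ZT18. Old libraries were also lowest at ZT10, but their highest was replicate 2 at ZT2. The swing on the mean of both ages was 1.69 (SE 0.29), 3.23-fold, with an adjusted p of 7.01e-04. The fitted peak was at ZT21.2, earlier than for the other called genes of the night and morning window except Insig1. The mean level itself was lower at ZT22 (15.1) than at ZT18 (28.6) or ZT2 (22.4). Mvk did not pass in any rhythm test, with a swing of 0.32 (SE 0.18) and an adjusted p of 0.382 on the mean of both ages. Its lowest, median and highest levels were 6.49, 8.42 and 16.6 in young and 7.74, 9.73 and 12.9 in old.

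Idi1 (chr13:8885501-8892451, plus strand) interconverts the isoprenoid diphosphates and Fdps (chr3:89093592-89101967, minus strand) joins them into farnesyl diphosphate, where the sterol branch parts from the dolichol, ubiquinone and prenylation branches. In young liver, Idi1 read 83.2 and 78.0 at ZT2, 67.6 and 83.2 at ZT6, 36.7 and 54.2 at ZT10, 57.0 and 35.6 at ZT14, 73.2 and 104 at ZT18 and 139.9 and 94.3 at ZT22. In old liver, Idi1 read 63.0 and 74.9 at ZT2, 73.3 and 81.6 at ZT6, 43.8 and 65.8 at ZT10, 55.9 and 55.5 at ZT14, 82.4 and 111 at ZT18 and 71.7 and 97.2 at ZT22. The mean was highest at ZT22 in young and at ZT18 in old and lowest at ZT10 in both, although the lowest young library was ZT14 replicate 2. Idi1 had a swing of 0.95 (SE 0.18) on the mean of both ages (adjusted p = 0.00196), of 1.30 (SE 0.26) in young (adjusted p = 0.0062) and of 0.62 (SE 0.26) in old (adjusted p = 0.28). In young liver, Fdps read 319 and 241 at ZT2, 178 and 213 at ZT6, 104 and 125 at ZT10, 134 and 127 at ZT14, 350.3 and 368 at ZT18 and 344 and 269 at ZT22. In old liver, Fdps read 263 and 366 at ZT2, 279 and 216 at ZT6, 155 and 184 at ZT10, 149 and 151 at ZT14, 357 and 364 at ZT18 and 260.1 and 259 at ZT22. The 4 libraries at ZT18 ranged from 350.3 to 368 and the 8 at ZT10 and ZT14 from 104 to 184, without overlap. Its swing was 1.29 (SE 0.19), 2.44-fold, with a peak at ZT22.6 and an adjusted p of 1.20e-04. Acat2 (chr17:12942890-12960747, minus strand), the cytosolic thiolase that makes acetoacetyl-CoA, had a smaller but regular swing. In young liver, Acat2 read 130.3 and 134 at ZT2, 97.5 and 126 at ZT6, 93.6 and 91.2 at ZT10, 89.7 and 76.4 at ZT14, 108 and 125 at ZT18 and 122 and 125 at ZT22. In old liver, Acat2 read 138 and 153 at ZT2, 113 and 116 at ZT6, 89.6 and 92.9 at ZT10, 92.8 and 85.5 at ZT14, 123 and 136 at ZT18 and 117 and 135 at ZT22. It ranged from 130.3 to 153 at ZT2 and from 76.4 to 93.6 at ZT10 and ZT14, without overlap. The swing of 0.65 (SE 0.09) passed with an adjusted p of 7.01e-05, and the peak was at ZT0.0.

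Reads of several of these genes can also match related sequences. Of the stretches of 50 bases in the GENCODE M21 transcripts of each gene, 39.1% for Acat2 were also in Acat3, and 26.2% for Fdps and 17.7% for Idi1 were in other genes, among them processed pseudogenes. The share was 9.87% for Tm7sf2, 9.38% for Fdft1 and at most 2.17% for the remaining 21 genes. Acat3 was listed at 144 scaled TPM, the Fdps copy Gm3571 at 53.0, the Idi1 copy Gm13502 at 60.8 and the Fdft1 copy Gm6781 at 7.83. The levels of Acat2, Fdps, Idi1, Tm7sf2 and Fdft1 are therefore uncertain. The shares do not measure by how much, and this was not estimated. Fdft1 and Acss2 also overlap Ctsb and Gss on the opposite strand, which the strand-specific libraries can separate if strand was used in counting.

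At the squalene stage, 2 of 3 genes were called on the mean of both ages. Fdft1 (chr14:63145153-63177793, minus strand), squalene synthase, commits farnesyl diphosphate to sterols. In young liver, Fdft1 read 44.3 and 59.4 at ZT2, 34.9 and 43.0 at ZT6, 34.2 and 34.4 at ZT10, 35.3 and 24.3 at ZT14, 49.1 and 66.7 at ZT18 and 49.2 and 43.8 at ZT22. In old liver, Fdft1 read 47.2 and 71.2 at ZT2, 44.9 and 47.6 at ZT6, 32.3 and 37.4 at ZT10, 35.1 and 33.0 at ZT14, 50.8 and 60.3 at ZT18 and 42.0 and 49.6 at ZT22. Its mean was lowest at ZT14 in young and old and highest at ZT18 in young and at ZT2 in old. The swing on the mean of both ages was 0.70 (SE 0.16) (adjusted p = 0.00819), and neither age passed alone. With deposited TPM that were not scaled further the call was lost, with an adjusted p of 0.0984. Lss (chr10:76531588-76557138, plus strand) closes squalene epoxide into lanosterol, the first ring sterol. In young liver, Lss read 18.3 and 14.7 at ZT2, 5.90 and 15.4 at ZT6, 10.6 and 13.1 at ZT10, 9.99 and 9.27 at ZT14, 14.6 and 22.4 at ZT18 and 15.3 and 15.1 at ZT22. In old liver, Lss read 20.4 and 20.6 at ZT2, 11.6 and 13.1 at ZT6, 4.42 and 8.91 at ZT10, 7.75 and 11.49 at ZT14, 18.2 and 21.3 at ZT18 and 15.7 and 17.1 at ZT22. Old replicate 1 at ZT10, at 4.42, was the lowest of all libraries, and both old libraries at ZT10 were below every old library at ZT2 and ZT18. Lss had a swing of 1.47 (SE 0.32) in old (adjusted p = 0.0136) and of 0.78 (SE 0.32) in young (adjusted p = 0.25), but the difference between ages did not pass (unadjusted p = 0.276). Sqle, squalene epoxidase, had a swing of 0.83 (SE 0.25) on the mean of both ages, with an adjusted p of 0.052 just above the threshold. Its lowest, median and highest levels were 14.8, 33.1 and 75.8 in young and 21.6, 34.6 and 71.9 in old.

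Of the 8 late sterol enzymes, Cyp51, Nsdhl, Sc5d and Dhcr7 passed on the mean of both ages. Cyp51 (chr5:4081145-4104746, minus strand) removes a methyl group from lanosterol. In young liver, Cyp51 read 97.3 and 84.7 at ZT2, 64.0 and 78.5 at ZT6, 54.5 and 58.8 at ZT10, 63.1 and 45.3 at ZT14, 87.8 and 88.7 at ZT18 and 96.0 and 77.6 at ZT22. In old liver, Cyp51 read 81.2 and 90.8 at ZT2, 83.7 and 89.6 at ZT6, 56.5 and 69.3 at ZT10, 61.1 and 52.3 at ZT14, 72.1 and 106 at ZT18 and 72.0 and 88.0 at ZT22. The ZT14 libraries, from 45.3 to 63.1, lay below all libraries at ZT2, and the swing of 0.67 (SE 0.13) passed with an adjusted p of 0.0026. Nsdhl (chrX:72918557-72958514, plus strand), on the X chromosome, acts in the removal of further methyl groups. In young liver, Nsdhl read 52.7 and 50.4 at ZT2, 41.1 and 52.6 at ZT6, 35.9 and 39.0 at ZT10, 23.8 and 26.0 at ZT14, 30.7 and 44.6 at ZT18 and 44.4 and 48.1 at ZT22. In old liver, Nsdhl read 47.0 and 59.0 at ZT2, 48.1 and 55.8 at ZT6, 34.6 and 51.0 at ZT10, 21.1 and 30.1 at ZT14, 36.6 and 52.8 at ZT18 and 32.1 and 45.2 at ZT22. Its level was 21.1 to 30.1 at ZT14, below every library of every other time, and its swing was 0.82 (SE 0.17) (adjusted p = 0.00325) with a peak at ZT2.5, later than most of the pathway.

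Sc5d (chr9:42254177-42264300, minus strand) introduces a double bond into the sterol ring near the end of the pathway, and it was the most abundant of the 26 genes in scaled TPM, a level per length. In young liver, Sc5d read 313 and 367 at ZT2, 249 and 486 at ZT6, 322 and 237 at ZT10, 168 and 192 at ZT14, 334 and 483 at ZT18 and 312 and 382 at ZT22. In old liver, Sc5d read 440.0 and 399 at ZT2, 362 and 441 at ZT6, 217 and 307 at ZT10, 157 and 263 at ZT14, 310.2 and 419.8 at ZT18 and 276 and 329 at ZT22. Replicates differed widely, for example 249 and 486 in young liver at ZT6. The swing was 0.75 (SE 0.22) with an adjusted p of 0.0401, and the call was lost in 16 of 33 alternative analyses, with adjusted p from 0.0173 to 0.140. Dhcr7 (chr7:143823145-143848410, plus strand) reduces the last double bond to give cholesterol. In young liver, Dhcr7 read 57.3 and 54.4 at ZT2, 29.7 and 42.7 at ZT6, 40.4 and 25.8 at ZT10, 24.3 and 28.4 at ZT14, 50.5 and 57.4 at ZT18 and 44.0 and 80.1 at ZT22. In old liver, Dhcr7 read 56.1 and 95.2 at ZT2, 43.9 and 47.9 at ZT6, 33.9 and 44.0 at ZT10, 25.0 and 42.9 at ZT14, 37.8 and 66.2 at ZT18 and 52.2 and 70.5 at ZT22. Its mean was lowest at ZT14 and highest at ZT22 in young and ZT2 in old, where replicate 2 reached 95.2. The swing was 1.09 (SE 0.19), 2.12-fold, with an adjusted p of 9.92e-04, and Dhcr7 passed in young (0.0205) and in old (0.0476) by adjusted p.

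The other late enzymes did not pass in any rhythm test. Tm7sf2, a sterol reductase, had lowest, median and highest levels of 99.2, 121 and 157 in young and 99.1, 122 and 189 in old. Msmo1, a sterol methyl oxidase, had 49.8, 106 and 219 in young and 70.9, 116 and 201 in old. Hsd17b7, a sterol ketone reductase, had 13.3, 20.5 and 26.7 in young and 12.8, 21.4 and 33.0 in old. Ebp, a sterol isomerase, had 111, 165 and 189 in young and 134, 163 and 189 in old. Their swings on the mean of both ages were 0.21 for Tm7sf2, 0.59 for Msmo1, 0.25 for Hsd17b7 and 0.25 for Ebp on the log2 scale. These are smaller than the swing of every late enzyme that passed.

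Of the SREBP regulators, Scap, Insig1 and Insig2 passed on the mean rhythm and Srebf2 did not. Srebf2 (chr15:82147266-82205376, plus strand) encodes SREBP2 and had a low level. In young liver, Srebf2 read 9.18 and 10.6 at ZT2, 8.34 and 11.3 at ZT6, 9.53 and 9.29 at ZT10, 6.19 and 7.58 at ZT14, 7.50 and 12.5 at ZT18 and 7.31 and 10.7 at ZT22. In old liver, Srebf2 read 8.77 and 15.2 at ZT2, 10.003 and 10.3 at ZT6, 6.69 and 11.3 at ZT10, 10.4 and 12.1 at ZT14, 9.88 and 12.2 at ZT18 and 8.88 and 11.2 at ZT22. Its highest and lowest times overlapped in both ages, and the swing of 0.19 (SE 0.17) did not pass (adjusted p = 0.667). Scap (chr9:110333293-110384935, plus strand), the escort that carries SREBP2 to the Golgi, was lower in the early night. In young liver, Scap read 32.0 and 24.7 at ZT2, 35.6 and 35.5 at ZT6, 34.5 and 30.9 at ZT10, 13.1 and 16.8 at ZT14, 18.9 and 25.6 at ZT18 and 24.9 and 29.7 at ZT22. In old liver, Scap read 30.7 and 36.7 at ZT2, 29.1 and 28.0 at ZT6, 23.9 and 25.3 at ZT10, 16.3 and 17.6 at ZT14, 23.9 and 23.0 at ZT18 and 24.7 and 24.6 at ZT22. The 4 libraries at ZT14 ranged from 13.1 to 17.6, under every library of the other times. Scap had a swing of 0.82 (SE 0.15) (adjusted p = 0.00106) and a peak at ZT3.7, in the morning.

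Insig1 and Insig2 encode the proteins that hold the Scap complex in the endoplasmic reticulum, and Insig1 is itself a classical SREBP target while Insig2 has a liver transcript known to be lowered by insulin. Insig2 (chr1:121304353-121332589, minus strand) had the widest swing of the 26 genes. In young liver, Insig2 read 330.4 and 147 at ZT2, 179 and 227 at ZT6, 46.5 and 46.5 at ZT10, 64.6 and 44.4 at ZT14, 85.6 and 112 at ZT18 and 221 and 252 at ZT22. In old liver, Insig2 read 241 and 302 at ZT2, 146 and 120.3 at ZT6, 74.4 and 65.1 at ZT10, 62.3 and 57.3 at ZT14, 182 and 155 at ZT18 and 276 and 184 at ZT22. The 8 libraries at ZT10 and ZT14 ranged from 44.4 to 74.4 and the 8 at ZT2 and ZT22 from 147 to 330.4, without overlap. The swing was 2.39 (SE 0.21), 5.23-fold, with an adjusted p of 1.67e-07 and a peak at ZT0.4. Insig1 (chr5:28071363-28078662, plus strand) followed a different course. In young liver, Insig1 read 207 and 355 at ZT2, 107 and 145 at ZT6, 117 and 119.7 at ZT10, 239 and 198 at ZT14, 342 and 418 at ZT18 and 211 and 139 at ZT22. In old liver, Insig1 read 217 and 336 at ZT2, 163 and 186 at ZT6, 105 and 128 at ZT10, 133 and 228 at ZT14, 301 and 332 at ZT18 and 148 and 218 at ZT22. Its mean was highest at ZT18 and lowest at ZT10 in both ages. At ZT14, where Insig2 was near its lowest, Insig1 had a mean of 199.5 over both ages against 118 at ZT10. The Insig1 swing was 1.05 (SE 0.27) with a peak at ZT20.4 and an adjusted p of 0.0218. The Insig1 call was lost with deposited TPM (adjusted p = 0.0839) and without the pair of libraries that stood apart (adjusted p = 0.0529).

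**Figure D2:**
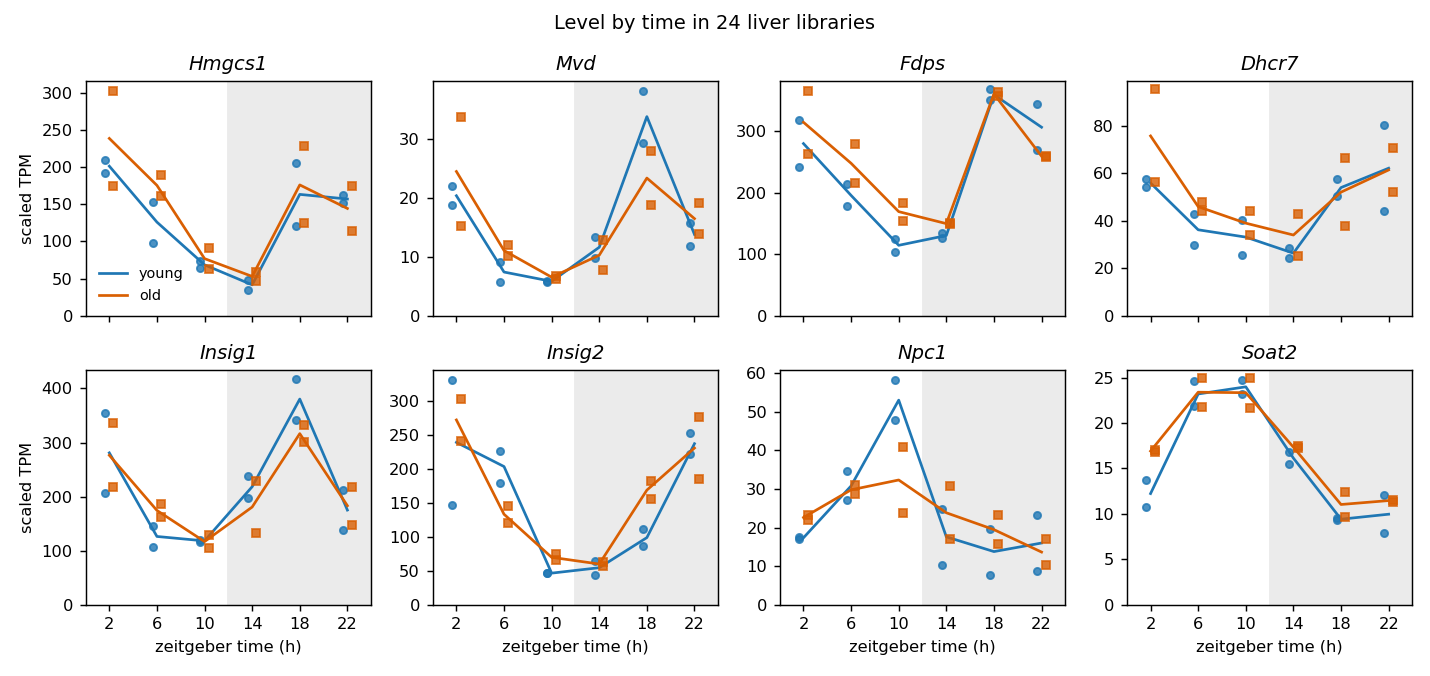
Scaled TPM (vertical axis, from 0) by zeitgeber time (horizontal axis, h) for 8 of the genes; circles are young libraries, squares old libraries, lines join the group means, and grey marks the time after ZT12, conventionally the dark phase. Hmgcs1, Mvd, Fdps, Dhcr7, Insig1 and Insig2 are low at ZT10 or ZT14, whereas Npc1 and Soat2 are high at ZT6 and ZT10.

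Acss2 (chr2:155517948-155585724, plus strand), which turns acetate into cytosolic acetyl-CoA and is a known SREBP target, shared the phase of the early enzymes. In young liver, Acss2 read 172 and 140.0 at ZT2, 99.2 and 139.9 at ZT6, 77.7 and 82.0 at ZT10, 51.2 and 70.1 at ZT14, 109 and 153 at ZT18 and 150.3 and 197 at ZT22. In old liver, Acss2 read 192 and 213 at ZT2, 179 and 117 at ZT6, 109 and 115 at ZT10, 67.7 and 66.8 at ZT14, 147 and 206 at ZT18 and 115 and 158 at ZT22. The ZT14 libraries were the lowest, at 51.2 to 70.1, and did not overlap with any other time. The swing was 1.25 (SE 0.20), 2.38-fold, with a peak at ZT0.4 and an adjusted p of 3.49e-04. Npc1 and Soat2 had another phase. Npc1 (chr18:12189693-12236400, minus strand), which exports cholesterol from lysosomes, peaked late in the light phase. In young liver, Npc1 read 17.54 and 17.1 at ZT2, 27.0 and 34.5 at ZT6, 58.2 and 47.7 at ZT10, 10.3 and 24.9 at ZT14, 7.83 and 19.7 at ZT18 and 8.64 and 23.3 at ZT22. In old liver, Npc1 read 23.3 and 21.8 at ZT2, 28.6 and 30.9 at ZT6, 23.8 and 40.8 at ZT10, 17.0 and 30.6 at ZT14, 15.6 and 23.3 at ZT18 and 10.3 and 16.9 at ZT22. Young libraries at ZT10 were above all others of that age, while old replicate 1 at ZT10, at 23.8, was within the range of other times. The swing was 1.80 (SE 0.40) in young (adjusted p = 0.0153), 1.08 (SE 0.40) in old (adjusted p = 0.21) and 1.44 (SE 0.29) on the mean of both ages (adjusted p = 0.0028).

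Soat2 (chr15:102150526-102163474, plus strand), the enzyme that esterifies cholesterol in hepatocytes, is a gene of the same late light phase. In young liver, Soat2 read 10.7 and 13.7 at ZT2, 21.8 and 24.6 at ZT6, 24.8 and 23.2 at ZT10, 15.4 and 16.8 at ZT14, 9.55 and 9.28 at ZT18 and 7.90 and 12.03 at ZT22. In old liver, Soat2 read 16.8 and 17.0 at ZT2, 21.8 and 25.0 at ZT6, 25.0 and 21.7 at ZT10, 17.2 and 17.4 at ZT14, 9.63 and 12.4 at ZT18 and 11.4 and 11.6 at ZT22. The 8 libraries at ZT6 and ZT10 ranged from 21.7 to 25.0 and the 8 at ZT18 and ZT22 from 7.90 to 12.4, without overlap. The swing was 1.32 (SE 0.10), 2.50-fold, with a peak at ZT8.4 and an adjusted p of 2.55e-08, the smallest of the 26. Stard4, a cytosolic sterol carrier, had 33.8, 44.2 and 67.4 as lowest, median and highest levels in young and 32.6, 43.3 and 58.8 in old, and its swing of 0.23 (SE 0.16) did not pass (adjusted p = 0.54).

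**Figure D3:**
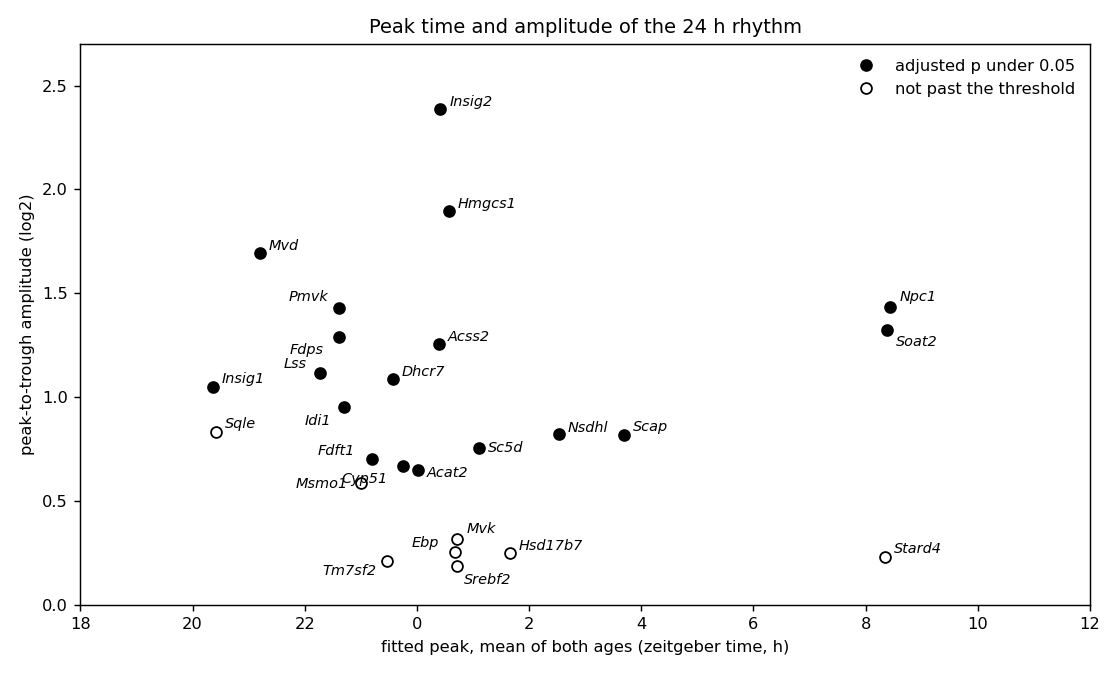
Fitted peak time on the mean of both ages (horizontal axis, zeitgeber time in h, from ZT18 through ZT0 to ZT12) against peak-to-trough amplitude on the log2 scale (vertical axis) for the 26 genes; filled points passed the rhythm test at an adjusted p under 0.05, open points did not. The 16 called synthesis and regulator genes lie from Insig1 at ZT20.4 to Scap at ZT3.7, and Npc1 and Soat2 lie at ZT8.4.

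Rhythms were also tested within each age. In young liver 14 of the 26 genes passed, against 10.7% of all genes tested, and in old liver 9 passed, against 8.96%. The lists overlapped in 8 genes (Hmgcs1, Pmvk, Mvd, Dhcr7, Insig2, Acat2, Acss2 and Soat2), 57.1% of the young list and 88.9% of the old. The overlap over all genes tested is not given here, so these shares have no reference and cannot be called high or low. Idi1, Fdps, Cyp51, Nsdhl, Scap and Npc1 passed in young liver and not in old, and Lss in old and not in young. These counts do not show a difference between ages, which was tested directly. The test of a difference in rhythm called 0 of the 26 genes and 0 of all genes (0%) in limma. At an unadjusted p under 0.05 it called 0 of the 26, where the smallest p was 0.165, and 429 of all genes. The old count changed when single libraries of either age were left out. It was 5 without old ZT10 replicate 1, 5 without old ZT14 replicate 1, 5 without old ZT2 replicate 2, and 2 with deposited TPM not scaled further. It was 6 without young ZT2 replicate 1, young ZT10 replicate 2 or young ZT14 replicate 2. The old cosine is fitted to old libraries, but its test uses a spread shared by both ages. Some old calls were near the threshold, with an adjusted p of 0.0476 for Mvd and Dhcr7 and 0.044 for Acss2.

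The fitted swings of most of the 26 genes were smaller in old liver, a description that no test called. The median over the 26 genes was 0.91 in young and 0.76 in old on the log2 scale, beside 0.44 and 0.39 for all genes tested. The fitted swing was lower in old for 22 of the 26 genes, beside 55.6% of all genes, and for 23 without the pair of libraries that stood apart. Leaving out single libraries gave 18 to 24 of 26. Examples were Fdps with 1.60 (SE 0.27) in young and 0.99 (SE 0.27) in old, Insig2 with 2.59 (SE 0.30) and 2.23 (SE 0.30), and Pmvk with 1.67 (SE 0.27) and 1.20 (SE 0.27). The genes share the same libraries and are not replicates of the comparison. Among the 8 genes called in both ages, the fitted peak was later in old for 5 and earlier for 3, with shifts from -1.002 h for Insig2 to 1.77 h for Mvd.

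Old and young liver were compared over the whole day as the mean of the 6 old groups minus the mean of the 6 young groups. None of the 26 genes passed in limma, with 0 higher and 0 lower in old, whereas 1.14% of all genes tested were called higher and 0.498% lower. At an unadjusted p under 0.05, 3 of the 26 were higher (Pmvk, Acss2 and Fdps), beside 5.95% of all genes, and 0 lower, beside 5.7%. Pmvk had the smallest p, with a mean of 72.7 ± 33.3 (SD, n = 12) in young and 84.1 ± 28.8 (SD, n = 12) in old, spreads that include the daily swing. Its difference was 0.27 (SE 0.08) on the log2 scale with an adjusted p of 0.116, higher in old at 4 of 6 times. With deposited values not scaled further Pmvk passed, at 0.38 (adjusted p = 0.0372) in TPM and 0.34 (adjusted p = 0.0347) in FPKM (fragments per kilobase of transcript, scaled to library size). The next smallest p belonged to Acss2, at 0.23 (SE 0.11) with an adjusted p of 0.409. Fdps differed by 0.17 (SE 0.081) (adjusted p = 0.424) and Soat2 by 0.16 (SE 0.076) (adjusted p = 0.437). Srebf2 differed by 0.20 (SE 0.12) (adjusted p = 0.618) and Insig2 by 0.19 (SE 0.13) (adjusted p = 0.648).

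The differences were small and mostly of 1 sign. Of the 26 genes 22 were positive, beside 47.0% of all genes tested, with a median of 0.096 beside -0.012 for all genes on the log2 scale. Single libraries moved these values, with 19 to 24 positive genes when each was left out in turn. The median was 0.052 without old ZT22 replicate 2, 0.055 without young ZT18 replicate 1, 0.058 without old ZT2 replicate 2, 0.062 without young ZT14 replicate 2 and 0.062 without old ZT18 replicate 2. It was 0.15 without old ZT2 replicate 1. The 4 negative genes were Scap, Stard4, Insig1 and Tm7sf2, all within 1 SE of 0. With deposited TPM all 26 were positive, and the median of all genes itself moved to 0.090 while that of the 26 was 0.20. By stage the medians were 0.16 for the isoprenoid genes, 0.097 for the squalene genes, 0.053 for the late sterol genes and 0.090 for the SREBP regulators. No test was made over the list, and the genes share their libraries.

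**Figure D4:**
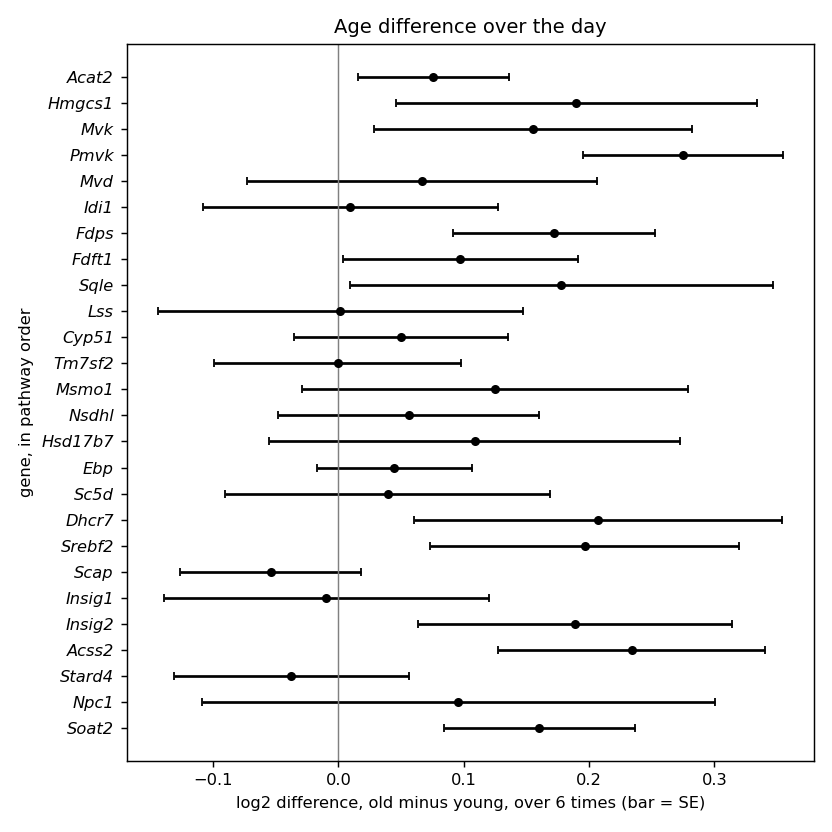
Old minus young difference over the 6 times on the log2 scale (horizontal axis) for each of the 26 genes in pathway order; points are estimates and bars 1 standard error. Points for 22 genes lie right of 0, from near 0 for Lss and Idi1 to 0.27 for Pmvk, and none passed the threshold.

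The age difference was also tested at each time and for change over the day. In limma, 0 of the 26 genes had a difference that varied over times, against 0.0163% of all genes, and 0 of the 26 had an unadjusted p under 0.05. At ZT2 and at ZT6, 0 of the 26 passed and 0 of all genes (0%), and at ZT10 0 of the 26 passed against 0.53%. At ZT14 0 of the 26 passed against 0.0408%, at ZT18 0 against 0.0245% and at ZT22 0 against 0.00816%. At an unadjusted p under 0.05 there were 2 genes at ZT2 (Pmvk and Soat2), 0 at ZT6, 4 at ZT10 (Pmvk, Fdps, Lss and Scap), 2 at ZT14 (Pmvk and Srebf2), 1 at ZT18 (Insig2) and 0 at ZT22. The shares of all genes under that value were 4.01% at ZT2, 4.04% at ZT6, 7.92% at ZT10, 7.86% at ZT14, 4.64% at ZT18 and 3.04% at ZT22. All were higher in old except Lss and Scap at ZT10. The smallest of these p belonged to Fdps at ZT10, with a difference of 0.56 (SE 0.20, adjusted p = 0.355). The median difference of the 26 was 0.16 at ZT2, 0.27 at ZT6, 0.14 at ZT10, 0.19 at ZT14, 0.048 at ZT18 and -0.044 at ZT22. Positive genes numbered 20, 21, 15, 21, 16 and 12 of 26 at these times. These medians describe the 26 genes, which share their libraries.

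Neighbouring pathways were taken from lists of named genes. Among 12 genes of SREBP processing and sterol sensing in the endoplasmic reticulum, 4 passed on the mean rhythm (33.3%). The share of all genes tested was 23.9%. Srebf1, which encodes the lipogenic relative SREBP1, had a swing of 0.998 (SE 0.26) and a peak at ZT14.6, and Rnf145, a ubiquitin ligase with a sterol-sensing role, had 1.14 (SE 0.16) with a peak at ZT12.1. Tmem97 peaked at ZT12.4. None of these 3 peaked in the window of the synthesis enzymes. Of 11 other SREBP-responsive genes, 8 passed (72.7%). Rdh11, a retinol dehydrogenase, had a swing of 1.58 (SE 0.26) and a peak at ZT0.3, Cyb5b peaked at ZT22.7 and Mmab at ZT22.9, within that window. Aacs, which activates acetoacetate, peaked at ZT16.3 with a swing of 1.90 (SE 0.30). In both lists, 0 genes passed for age in either direction.

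Of 12 isoprenoid branch genes, 3 were called on the mean rhythm (Nus1, Pdss1 and Rabggtb), beside the 23.9% of all genes. Cholesterol storage and trafficking genes gave 5 calls of 13 tested (38.5%). Nceh1, a cholesterol ester hydrolase, had a peak at ZT9.2 and a swing of 1.01 (SE 0.16), near the phase of Soat2. Lipa, the lysosomal ester hydrolase, peaked at ZT22.6. Among 9 LXR targets and efflux genes, 2 passed (22.2%), near the share of all genes. They were the sterol exporter subunits Abcg5 at ZT9.3 with a swing of 1.73 (SE 0.16) and Abcg8 at ZT7.2 with 1.89 (SE 0.24). Both are in the light phase with Npc1 and Soat2. Pltp, the plasma phospholipid transfer protein, passed for age, the 1 gene of the pathway lists to do so, with 22.3 ± 6.22 in young and 36.7 ± 10.1 in old (SD, n = 12), a difference of 0.71 (SE 0.15) with an adjusted p of 0.0215.

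Bile acid synthesis, the main outlet of liver cholesterol, gave 7 calls of 10 genes (70%), beside 23.9% of all genes tested. Cyp7a1, its rate-limiting enzyme, had a swing of 1.996 (SE 0.27) and a peak at ZT14.7. Hsd3b7 peaked at ZT3.6 with 1.82 (SE 0.20). The called genes of this list peaked at different times, for example Cyp8b1 at ZT0.8 and Amacr at ZT6.4. Lipogenic enzymes driven by SREBP1c gave 7 calls of 10 (70%), beside the same share of all genes. Thrsp, a lipogenic regulator, had a swing of 3.19 (SE 0.27) and a peak at ZT16.8, and Elovl6, a fatty acid elongase, peaked at ZT15.5. Of the 7 called lipogenic genes, 6 peaked before the ZT20.4 to ZT3.7 of the 16 cholesterol genes, a difference that was not tested. Acacb, an acetyl-CoA carboxylase named after its values were seen, peaked within it, at ZT21.6. Clock genes served as a reference of phase. Nr1d1, a clock repressor, peaked at ZT7.4, Dbp at ZT10.4, Ciart at ZT11.7 and Per2 at ZT15.2, with swings of 3.28 to 5.84 on the log2 scale, and 4 of 4 passed in both ages.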

How the data were processed

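Per the labels' protocols, total RNA was taken from frozen liver, mRNA was selected with oligo-dT, and strand-specific single-end libraries were sequenced in reads of 50 bases. Per the submitters' processing notes, HISAT2, StringTie and GRCm38 were used, and their versions, the annotation and the strand setting are not given in the sources used here. The authors deposited, for each gene and library, coverage (a signal), FPKM and TPM values. No counts were used here.

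Entries with the same gene identifier were summed. Each library's TPM were divided by its median ratio to a reference, the geometric mean of 13270 genes detected in every library. Depth was 8.70 to 13.7 M reads a library from the largest ratio of coverage to FPKM over genes, which limits precision for low genes. Tests ran in limma 3.58.1 (R 4.3.3) with an intensity trend on log2(scaled TPM + 0.5), so fold changes of low genes are understated. The filter kept 12261 genes averaging 1 TPM or more, with Benjamini-Hochberg adjustment over all of them and a threshold of 0.05. One model had the 12 group means (age over the day, at each time, and its change over times), the other a cosine and sine of 24 h for each age. Swing means the fitted peak-to-trough difference. Errors are SE from the model or SD over libraries. The steps were tested on simulated data.

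The 26 genes, the other lists and the tests were chosen with earlier results of these data known. Values in every library are given for genes past any threshold and for the 6 with the smallest p for age and the 6 with the largest swing, and at most 4 genes of each other list are named. Some genes of the other lists are not reported here. Sequences shared between genes were searched in GENCODE M21 transcripts. Alternatives were other scalings, units, pseudocounts and filters, an F test over the 6 times for the rhythm counts, the replicate number as a block, and leaving out libraries.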

Additional observations from a re-analysis of the deposited data

How the results depend on the processing

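Each count was recomputed under 33 alternatives, and rhythm counts also with limma's F test over the 6 times in place of the cosine, which called 11 genes in young, 10 in old and 18 on the mean of both ages. Genes higher in old were 0 except for 1 with deposited TPM and 1 with deposited FPKM, in both cases Pmvk, and counts for lower in old, for a single time, for change over times and for a rhythm difference were 0 in every alternative run. Genes rhythmic in old, 9 as reported, were 2 with deposited TPM and 5 to 11 when single libraries were left out. The cause was not tested. With deposited TPM 10 were rhythmic in young and 15 on the mean of both ages, and all other alternatives gave 11 to 15 in young and 17 to 19 on the mean, with 6 to 11 in old apart from single libraries left out. The median age difference stayed between 0.052 and 0.20 on the log2 scale. With the replicate number as a replicate block, 15 genes were rhythmic in young, 11 in old and 19 on the mean, and 0 passed for age. In each group, replicate 2 minus replicate 1 was taken for every gene tested. These differences correlated over 0.1 in 52 of 66 pairs of groups (lowest -0.16, median 0.19, highest 0.45). The fit without the block was kept because the labels tie no number to a shared animal or day. If the numbers mark a shared source, its effect stays in the spread behind the reported p-values. Whether they do was not tested. Without young ZT18 replicate 2 and old ZT14 replicate 1, 14 genes were rhythmic in young, 7 in old and 17 on the mean. Of the 18 genes called on the mean, 15 kept their call in all 33 alternatives; Sc5d kept it in 17, Insig1 in 31 and Fdft1 in 32. Depth of 8.70 to 13.7 M reads a library limits the precision of the least abundant genes.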

Other observations

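Within old groups, the cholesterol genes were more often higher in the second library than in the first. At ZT2, 23 of the 26 genes were higher in replicate 2, with a median log2 ratio of 0.33, beside -0.0039 for all genes tested. Counts at the other old times were 17 at ZT6, 19 at ZT10, 16 at ZT14, 20 at ZT18 and 21 at ZT22, with medians from 0.10 to 0.34. In young groups the counts were 12 at ZT2, 24 at ZT6, 13 at ZT10, 11 at ZT14, 21 at ZT18 and 14 at ZT22, with medians from -0.096 to 0.44. Labels do not say what the replicate number marks, and no test was made.

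Single libraries at the high and low times of the gene group often held its extremes. On the mean of both ages, ZT14 was the lowest time for 18 of the 26 genes. The highest was ZT18 for 11 and ZT2 for 9. The counts below therefore include the daily rhythm of these genes, and the shares of all genes are no reference for that. Old ZT2 replicate 2 was the highest of the 12 old libraries for 13 of the 26 genes, beside 8.45% of all genes tested, and old ZT18 replicate 2 for 7, beside 7.54%. Young ZT14 replicate 2 was the lowest young library for 10, beside 6.96%, and young ZT14 replicate 1 for 8, beside 11.8%.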
